A study of Mus musculus with 30 samples.

Results

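The Hox cluster genes were examined as the genes whose symbol is Hoxa, Hoxb, Hoxc or Hoxd followed by a number, 39 of the 24421 genes listed. The 38 described below, over which all counts and sums are taken, comprise 10 Hoxa genes on chromosome 6 (52162417 to 52260880, minus strand), 10 Hoxb genes on chromosome 11 (96194316 to 96368256), 9 Hoxc genes on chromosome 15 (102921103 to 103036852) and 9 Hoxd genes on chromosome 2 (74668310 to 74765142), all in mm10 with the GENCODE M21 annotation. The libraries were made from bulk polyA RNA of mouse cortical tumours labelled glioblastoma, taken at postnatal day 70, and from normal cortex. The 28 tumours fall into 8 groups: mCherry (3 tumours, a red fluorescent protein with no receptor form named), wild-type EGFR (3), and the EGFR missense variants A289I (5), A289V (4), R108G (3), R108K (4), R222C (3) and T263P (3). Wild-type cortex without tumour was represented by 2 libraries. The question asked of these genes was which tumours carried Hox transcripts that cortex lacks. How the tumours were started, the mouse strain and the species of the receptor sequence are not given in the sources used here, so neither the cell of origin nor the driving promoter can be stated. The series' design text gives 3 to 5 mice per variant without tying libraries to mice, so each p-value measures only the spread between these libraries.

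Hox genes encode homeodomain transcription factors that give cells along the head-to-tail axis their position. Within each cluster the low-numbered genes are switched on earliest and furthest forward, in the hindbrain, and the high-numbered genes later and further back, in the trunk, limbs and tail. The embryonic forebrain, from which the cortex forms, lies ahead of the Hox domain, and Polycomb complexes keep the clusters silent there. Transcription of the HOXA cluster has been described in a subset of human glioblastomas.

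The promoter sequences of 4 members show how they differ in CpG content, the dinucleotide that Polycomb-bound promoters are rich in. RefSeq promoters (GRCm38.p6, 250 bases before to 50 after the start) were matched to 22 of the 38 members, with 24 entries, and each is printed 5′ to 3′ on the gene's strand with every CG in capitals. Hoxa2 (chr6:52164782-52165081, minus strand) and Hoxa5 (chr6:52204538-52204837, minus strand) belong to the forward end of the cluster that the tumours transcribed most often. Hoxa9 (chr6:52227321-52227620, minus strand) is a rear gene that few tumours transcribed, and Hoxb4 (chr11:96318017-96318316, plus strand) belongs to a cluster that stayed near 0.
Hoxa2: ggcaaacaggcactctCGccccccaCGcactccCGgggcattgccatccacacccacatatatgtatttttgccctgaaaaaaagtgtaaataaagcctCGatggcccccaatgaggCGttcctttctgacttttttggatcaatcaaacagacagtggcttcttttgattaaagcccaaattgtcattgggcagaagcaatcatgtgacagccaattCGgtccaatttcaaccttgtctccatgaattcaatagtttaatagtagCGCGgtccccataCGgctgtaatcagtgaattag
Hoxa5: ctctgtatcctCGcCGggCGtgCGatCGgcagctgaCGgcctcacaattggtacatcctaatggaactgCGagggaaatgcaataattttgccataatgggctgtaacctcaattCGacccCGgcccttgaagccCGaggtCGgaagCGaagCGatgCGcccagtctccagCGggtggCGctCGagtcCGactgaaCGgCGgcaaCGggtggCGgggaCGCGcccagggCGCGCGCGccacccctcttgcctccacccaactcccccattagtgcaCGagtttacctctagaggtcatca
Hoxa9: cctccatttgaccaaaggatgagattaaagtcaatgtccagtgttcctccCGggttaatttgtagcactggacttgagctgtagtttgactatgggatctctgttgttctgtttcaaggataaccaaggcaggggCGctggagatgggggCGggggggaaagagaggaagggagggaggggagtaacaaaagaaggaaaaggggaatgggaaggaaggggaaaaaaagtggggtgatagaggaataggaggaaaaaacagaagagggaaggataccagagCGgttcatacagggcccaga
Hoxb4: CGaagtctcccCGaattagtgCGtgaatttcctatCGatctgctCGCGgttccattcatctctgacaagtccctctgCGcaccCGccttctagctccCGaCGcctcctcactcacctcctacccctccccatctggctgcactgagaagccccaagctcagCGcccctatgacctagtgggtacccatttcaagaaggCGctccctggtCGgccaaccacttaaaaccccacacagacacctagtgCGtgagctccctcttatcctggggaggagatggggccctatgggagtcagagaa
The window of Hoxa5 held 29 CG dinucleotides, that of Hoxb4 14, that of Hoxa2 9 and that of Hoxa9 4. Hoxa9 is not typical of the rear genes in this count: the 2 windows of Hoxa10 held 21 and 12, that of Hoxa11 15 and that of Hoxa13 45. Over the 24 member promoters the median was 14.5 (range 4 to 45), and over all 32841 promoters in the RefSeq table it was 7. The letters TGATNNAT, a spacing bound by Pbx and Hox proteins together, were searched on both strands. They occurred in 4 of the 24 member promoters (Hoxa2, Hoxb1, Hoxb8 and Hoxd11) and in 8.85% of all promoters. These matches describe the windows and do not show a site in use.

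The libraries held 2784129 to 24475215 gene reads. Levels are given as gene reads scaled for library size (RPM), a scale on which 1 read was worth 0.0387 to 0.383 RPM and 3 reads, the lowest level stated for a gene with no read, 0.116 to 1.15 RPM. A member was counted as detected in a library at 1 RPM or more with at least 3 reads. Egfr measured 11.3 and 12.7 RPM in cortex, 22.1 to 35.4 in the mCherry tumours and 17.5 to 2790 in the receptor tumours, where R108G tumour 1 was the lowest. With the species of the receptor sequence not given, these reads do not check the labels. The counting program and its strand setting are not given in the sources used here. Of the 38 members, 15 overlap another gene on the same strand and 13 one on the other strand, so reads of Hoxa3 and the Hoxa4, Hoxa5 and Hoxa6 genes that its annotated span encloses, cannot be told apart with certainty.

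Hox transcripts were all but missing from cortex and present in most tumours. The 2 cortex libraries together held 4 Hox reads of 15040022 gene reads, 2 for Hoxa9, 1 for Hoxb5 and 1 for Hoxd13, all in cortex library 2, and the other 35 members had none. The 28 tumours held 11235 Hox reads, and 23 of the 28 had at least 1 member detected. The median tumour had 4 members detected (range 0 to 17) and a summed Hox level of 22.6 RPM (range 0.312 to 167). A level of 0 in cortex allows up to 3 reads over both libraries, or 0.233 RPM, and this covers counting error only. In bulk tissue, fewer cells that transcribe a gene and less RNA of it per cell cannot be told apart.

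**Figure D1:**
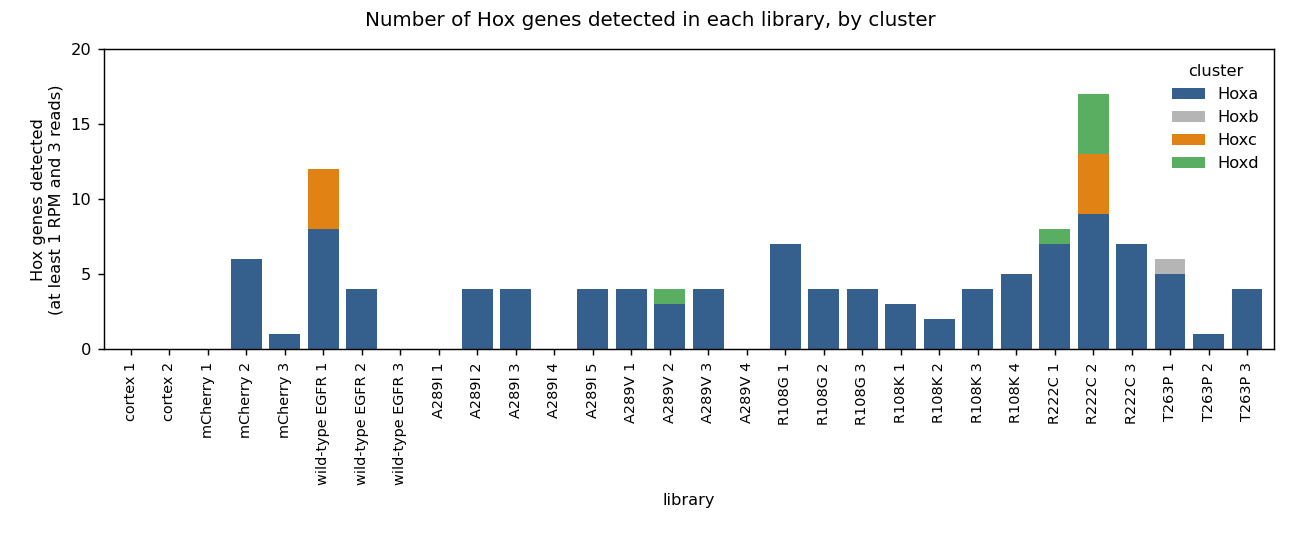
Number of the 38 Hox genes detected (1 RPM or more and 3 reads or more) in each of the 30 libraries, stacked by cluster, with libraries ordered by group. Hoxa genes make up more than the other clusters in every bar above 0, R222C tumour 2 reaches 17 genes and wild-type EGFR tumour 1 reaches 12, and both cortex libraries and 5 tumours are at 0.

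The Hoxa cluster supplied most of the signal. Of the tumour Hox reads, 9592 (85.4%) were on Hoxa genes, 797 on Hoxd, 650 on Hoxc and 196 on Hoxb. The Hoxa sum exceeded the other 3 clusters together in 27 of 28 tumours, the exception being wild-type EGFR tumour 3 with 4 Hox reads in all. Detection within Hoxa was concentrated at the forward end. In 13 tumours all of Hoxa2 to Hoxa5 were detected, and in 9 tumours the members detected all lay in that stretch. A member outside it was detected in 14 tumours, and a member of paralog groups 9 to 13, of which the list holds 16, in 7.

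The tumours did not share one Hox state. No member was detected in mCherry tumour 1, wild-type EGFR tumour 3, A289I tumours 1 and 4 and A289V tumour 4, although mCherry tumour 1 held 7466221 gene reads and wild-type EGFR tumour 3 held 12950869. R222C tumour 2 had 17 members detected, wild-type EGFR tumour 1 had 12, R222C tumour 1 had 8, and R222C tumour 3 and R108G tumour 1 had 7 each. By group, the number detected was 10.7 ± 5.51 in R222C (mean ± SD, n = 3), 5.33 ± 6.11 in wild-type EGFR (n = 3), 5 ± 1.73 in R108G (n = 3) and 3.67 ± 2.52 in T263P (n = 3). It was 3.5 ± 1.29 in R108K (n = 4), 3 ± 2 in A289V (n = 4), 2.4 ± 2.19 in A289I (n = 5) and 2.33 ± 3.21 in mCherry (n = 3). Outside R222C, wild-type EGFR tumour 1 alone lay above the lowest R222C tumour. Neighbouring groups in this order overlapped.

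**Figure D2:**
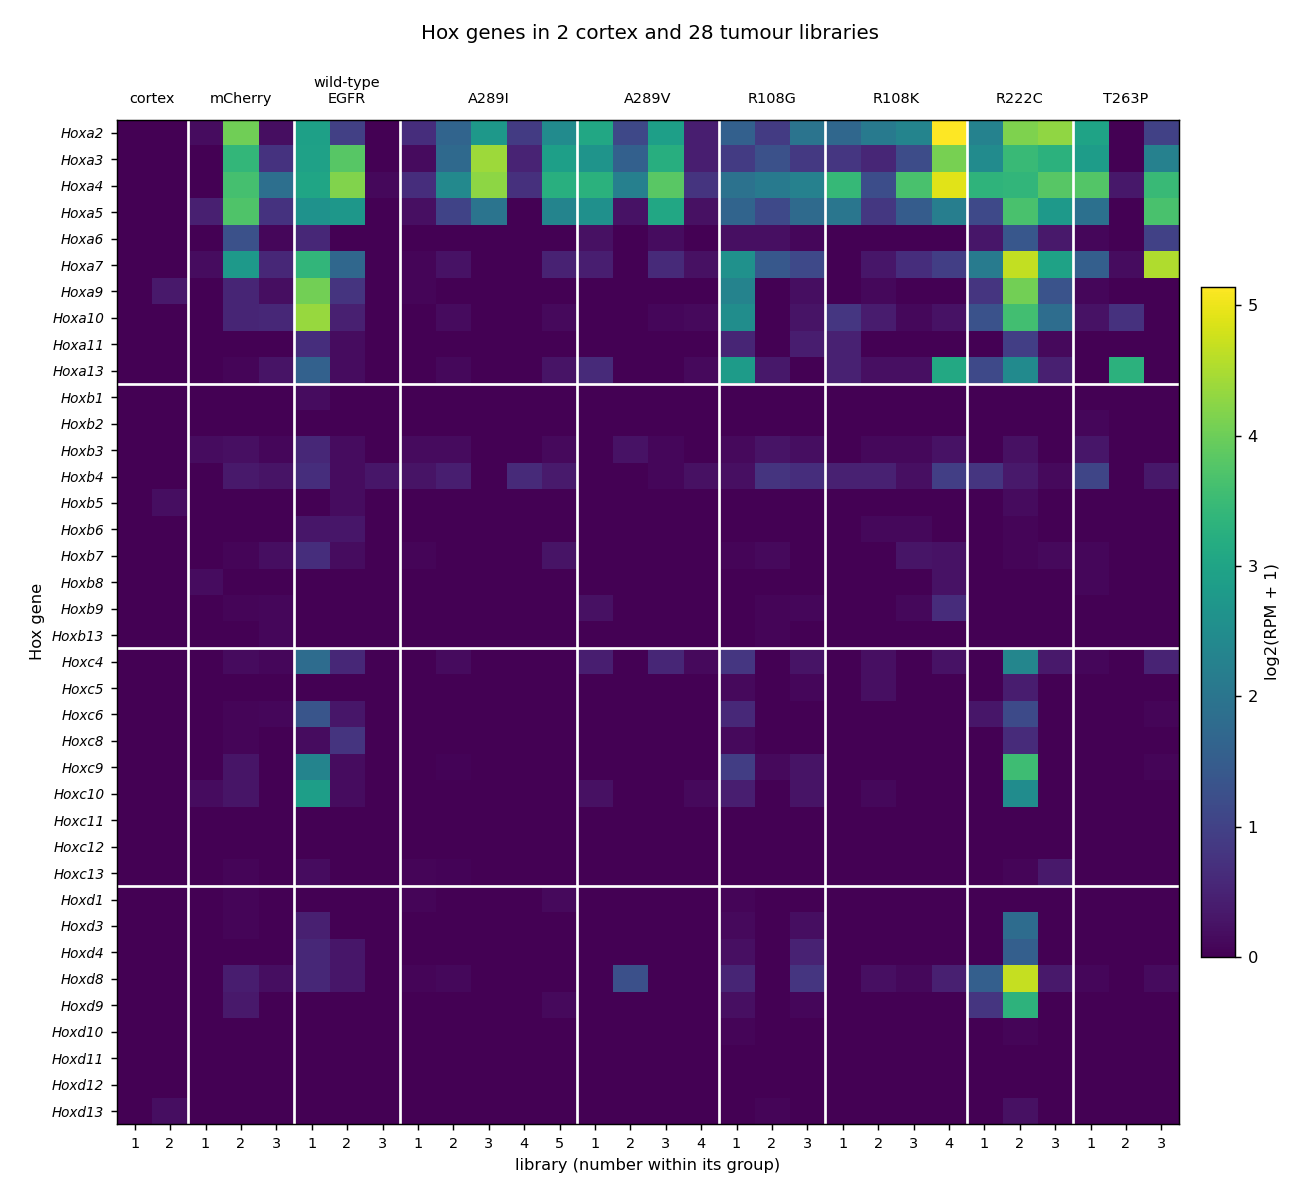
Level of each of the 38 Hox genes (rows, by cluster and number) in each of the 30 libraries (columns, by group) as log2(RPM + 1). The forward Hoxa genes are filled in most tumour columns, the rear Hoxa genes and the Hoxc and Hoxd genes in few, and the Hoxb rows and the cortex columns are near 0.

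The test across genes compared log2(RPM + 1) between groups with limma, over the 15824 genes that reached 1 RPM in at least 3 libraries, with Benjamini-Hochberg adjustment over all of them and a threshold of 0.05. Only 9 members entered it: Hoxa2, Hoxa3, Hoxa4, Hoxa5, Hoxa7, Hoxa9, Hoxa10, Hoxa13 and Hoxd8. Since cortex has only 2 libraries, each of them entered through its tumour values, so their counts and medians are a description. R222C gave 2 of the 3 tumours with Hoxd8 detected, 3 of the 5 with Hoxa10 and 2 of the 4 with Hoxa9. These members passed the filter only with R222C included, so their tests of R222C are a description too. Between the 28 tumours (8 group means weighted equally) and cortex, 1 of the 9, Hoxa4, was called, higher in tumours, and 2 had an unadjusted p under 0.05. Of all genes tested 47.4% were called in this comparison, 22.9% higher and 24.5% lower. The median log2 difference was 1.36 over the 9 members and 0.03 over all genes tested. The call rests on few cortex libraries: without either one of them none was made.

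Hoxa4, a paralog group 4 gene of the hindbrain and cervical cord (52189671 to 52191753), had the highest level per kilobase of exon among the members. Its median over tumours was 4.88 RPM per kb, against 1.48 for Hoxa2, 1.21 for Hoxa5, 0.36 for Hoxa3 and 0.176 for Hoxa7, and it was the highest Hoxa member on that scale in 17 of 28 tumours. The length used was that of all annotated exons together, 1594 bases for Hoxa4 and 6014 for Hoxa3, so this ranking depends on the annotation. Hoxa4 measured 9.97, 1.32, 11.6 and 29 RPM in the R108K tumours, 9.16, 9.38 and 12.9 in R222C, 12.5, 0.266 and 10.2 in T263P, and 2.85, 3.27 and 3.81 in R108G. It measured 0.590, 4.34, 18.2, 0.637 and 8.46 RPM in A289I, 8.72, 3.74, 13.3 and 0.704 in A289V, 7.10, 16.9 and 0.0780 in wild-type EGFR, and 0, 11.3 and 2.68 in mCherry. Both cortex libraries were at 0, and 27 of 28 tumours lay above them, with 22 tumours at the detection level. The R222C and R108G values lay close together, and each of the other groups mixed tumours at or below 1.32 RPM with tumours above 9. Group means ran from 13 ± 11.6 in R108K (SD, n = 4) and 10.5 ± 2.13 in R222C (n = 3) to 4.66 ± 5.91 in mCherry (n = 3) and 3.31 ± 0.483 in R108G (n = 3). The tumour mean of 7.61 RPM was at least 32.7-fold higher than cortex, counting cortex at 3 reads over the group. Hoxa4 rose by 2.56 ± 0.998 (log2(RPM + 1), difference ± SE; limma adjusted p = 0.0371). Without one or the other cortex library the adjusted p was 0.183 and 0.184, and without R222C tumour 2, wild-type EGFR tumour 1 and R108G tumour 1 together, chosen after seeing the data, it was 0.0547. It was also lost with no filter on low values and with a term for 2 or for 3 library-number ranges. The call held under 35 of 41 alternatives, whose adjusted p ranged from 2.28e-06 to 0.184. Of the 41, 30 each left out 1 library, over which the difference moved little, from 2.45 to 2.71, so the tally is not a measure of robustness.

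Hoxa2, which patterns the hindbrain and the second pharyngeal arch (52162417 to 52164831), was detected in 18 tumours and reached the highest value of any member. It measured 2.30, 3.26, 4 and 34.3 RPM in R108K, 3.86, 16.6 and 18.7 in R222C, 6.95, 0 and 0.994 in T263P, and 2, 0.855 and 2.94 in R108G. It measured 0.590, 2.17, 5.69, 0.849 and 4.58 RPM in A289I, 7.47, 1.18, 6.49 and 0.352 in A289V, 6.62, 0.959 and 0 in wild-type EGFR, and 0.122, 15.3 and 0.137 in mCherry. R108K tumour 4 stood above the other 3 of its group (exact Poisson 95% interval of its count 29.5 to 39.7 RPM, counting error only), and both cortex libraries were at 0. The tumour mean was 5.33 ± 7.59 RPM (SD, n = 28), at least 22.9-fold higher than cortex. The fitted difference of 1.94 ± 0.92 did not pass the threshold (limma adjusted p = 0.0842). In 6 tumours Hoxa2, not Hoxa4, was the highest Hoxa member per kilobase.

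Hoxa3, needed for thymus and parathyroid formation (52169062 to 52213336), was detected in 17 tumours. It measured 0.107, 2.36, 20.02, 0.424 and 6.47 RPM in A289I, 5.34, 1.97, 8.31 and 0.352 in A289V, 0.767, 0.466, 1.28 and 16.0 in R108K, and 4.58, 10.2 and 8.88 in R222C. It measured 6.74, 13.1 and 0 RPM in wild-type EGFR, 0, 9.55 and 0.687 in mCherry, 0.849, 1.41 and 0.802 in R108G, and 6.20, 0 and 3.82 in T263P. In A289I tumour 3, the highest, Hoxa4 was also at its highest for that group. The difference from cortex was 1.88 ± 0.99 (limma adjusted p = 0.122).

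Hoxa5, a regulator of lung and cervical skeletal development (52201754 to 52204587), was detected in 19 tumours. It measured 1.21, 11.6 and 5.83 RPM in R222C, 2.73, 0 and 11.6 in T263P, 0.365, 12.2 and 0.687 in mCherry, and 5.17, 5.63 and 0 in wild-type EGFR. It measured 0.161, 1.05, 2.96, 0 and 3.98 RPM in A289I, 4.98, 0.197, 7.49 and 0.176 in A289V, 2.15, 1.21 and 2.41 in R108G, and 3.07, 0.776, 1.81 and 3.58 in R108K. Every group but R108G held at least 1 tumour below 1.3 RPM and 1 above 3. The difference from cortex was 1.70 ± 0.86 (limma adjusted p = 0.109).

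The rear genes of the cluster were detected in fewer tumours. Hoxa7, a thoracic-level gene (52214491 to 52221854), was detected in 11 tumours. It measured 3.38, 24.3 and 6.84 RPM in R222C, 1.92, 0.133 and 22 in T263P, 9.51, 2.28 and 0 in wild-type EGFR, and 5.05, 1.66 and 1.2 in R108G. It measured 0.122, 5.82 and 0.481 RPM in mCherry, 0, 0.233, 0.604 and 0.943 in R108K, at most 0.398 in A289I and at most 0.531 in A289V. Hoxa7 thus stayed under 1 RPM in all 13 tumours of A289I, A289V and R108K, and lay above 1 RPM in all 6 of R222C and R108G. The difference between all tumours and cortex was 1.36 ± 0.75 (limma adjusted p = 0.137).

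Hoxa9, which acts with Meis1 in blood progenitors and leukaemia (52223100 to 52231089), was detected in 4 tumours. It measured 15.6, 0.719 and 0 RPM in wild-type EGFR, 0.723, 15.6 and 1.48 in R222C, 3.90, 0 and 0.134 in R108G, and 0, 0.439 and 0.137 in mCherry. It was 0 in all 4 A289V tumours, at most 0.0776 RPM in A289I, R108K and T263P, and 0 and 0.283 in cortex. Hoxa10, a lumbar-level and uterine gene (52231197 to 52240854), was highest in the same 3 tumours. It measured 19.3, 0.36 and 0 RPM in wild-type EGFR, 1.45, 11 and 2.59 in R222C, 4.75, 0 and 0.201 in R108G, and at most 0.767 in the other 5 groups. Neither passed the threshold against cortex (limma adjusted p = 0.617 for Hoxa9 and 0.359 for Hoxa10).

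Hoxa13, at the far end of the cluster and known for digit and genital tract development (52257694 to 52260880), was highest in other tumours than its neighbours. It measured 0, 8.90 and 0 RPM in T263P, 0.383, 0.155, 0.151 and 7.54 in R108K, 6.10, 0.252 and 0 in R108G, and 1.21, 4.52 and 0.370 in R222C. It measured 2.05, 0.12 and 0 RPM in wild-type EGFR and at most 0.534 in A289I, A289V and mCherry, and cortex was at 0. In T263P tumour 2, Hoxa13 was the only member detected (67 reads), while Hoxa2 to Hoxa5 together came to 0.266 RPM. In R108K tumour 4 it was detected together with Hoxa2 to Hoxa5, which summed to 83.0 RPM, while Hoxa9 was at 0 and Hoxa10 at 0.189. Hoxa13 was the highest Hoxa member per kilobase in 2 tumours. The difference between all tumours and cortex was 0.68 ± 0.70 (limma adjusted p = 0.437). The remaining Hoxa members were Hoxa6, detected at 1.62 RPM in R222C tumour 2 and 1.43 in mCherry tumour 2, and Hoxa11, which reached 0.949 RPM and was not detected.

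**Figure D3:**
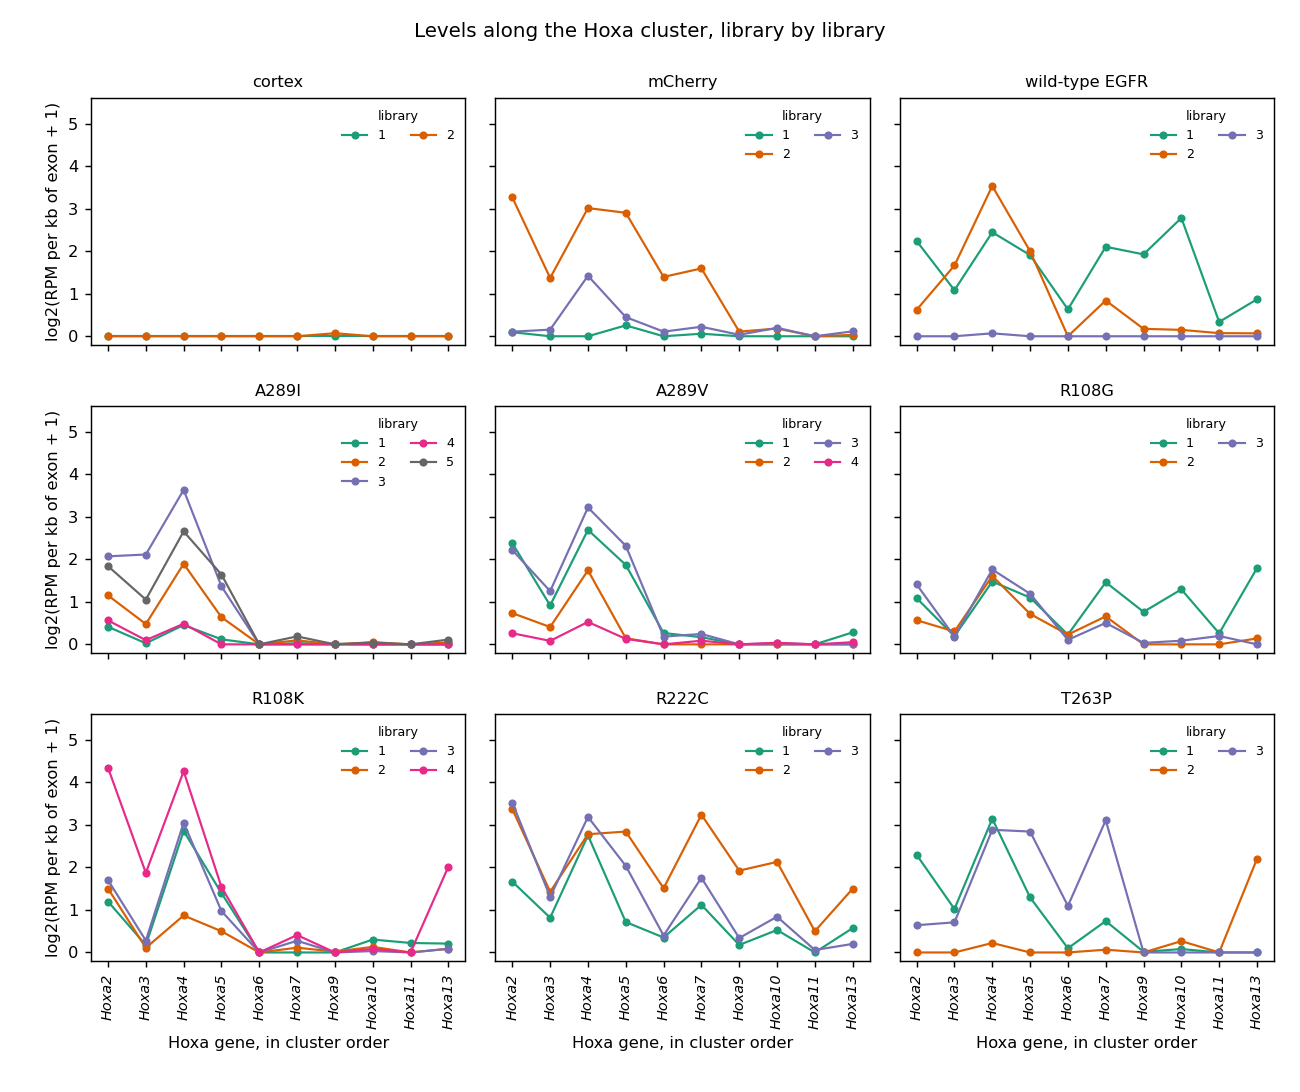
Hoxa genes in genomic order from Hoxa2 to Hoxa13 (x axis) against log2(RPM per kilobase of exon + 1) (y axis), in 1 panel per group with a line for each library. Most tumours peak between Hoxa2 and Hoxa5 and drop at Hoxa6, and some are higher again at Hoxa7. Wild-type EGFR tumour 1 and R222C tumour 2 are still raised from Hoxa7 to Hoxa10, and T263P tumour 2 rises at Hoxa13 alone.

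The Hoxb cluster stayed nearly silent. All 10 genes had at least 1 read in some tumour, but only Hoxb4 (96318267 to 96321638) was detected, at 1.12 RPM (18 reads) in T263P tumour 1. Its next highest value was 0.943 RPM (5 reads) in R108K tumour 4, and 5 tumours had no read. The Hoxb sum ranged from 0 to 2.07 RPM over tumours, and Hoxb5 had 1 read in cortex. Hoxb4 is the paralog of Hoxa4, so the same paralog group differed between the clusters within the same tumours: Hoxa4 was detected in 22 tumours and Hoxb4 in 1.

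Hoxc genes were detected in 2 tumours only. Hoxc9 (102976439 to 102985099), which sets thoracic motor neuron identity, measured 10.7 RPM in R222C tumour 2, 3.97 in wild-type EGFR tumour 1 and 0.899 in R108G tumour 1. Hoxc10 (102966796 to 102971893), a lumbar-level gene, measured 6.38 RPM in wild-type EGFR tumour 1, 4.69 in R222C tumour 2 and at most 0.350 elsewhere. Hoxc4 (103018934 to 103036852) measured 4.13 RPM in R222C tumour 2, 2.53 in wild-type EGFR tumour 1 and 0.750 in R108G tumour 1. Each of these 3 tumours was also the highest of its group for Hoxa10. Hoxc6 reached 1.56 RPM in wild-type EGFR tumour 1 and 1.23 in R222C tumour 2, Hoxc5, Hoxc8 and Hoxc13 stayed below 1 RPM, and Hoxc11 and Hoxc12 had no read in any library. The annotated span of Hoxc5 encloses Hoxc6, Hoxc8, Hoxc9 and Hoxc10, so the split of reads among them is uncertain.

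Hoxd genes were detected mainly in R222C tumour 2. Hoxd8 (74704615 to 74707933) measured 1.93, 24.9 and 0.277 RPM in R222C, 0, 1.38, 0 and 0 in A289V, 0.450, 0 and 0.735 in R108G, and 0.481, 0.240 and 0 in wild-type EGFR. The interval of the highest value was 22.7 to 27.4 RPM (447 reads), and the groups not named here stayed at or below 0.377. Hoxd9 (74697727 to 74700208), a lumbar-level gene, measured 0.723, 8.98 and 0 RPM in R222C and at most 0.274 elsewhere. Hoxd3 at 2.51 RPM and Hoxd4 at 1.95 were detected in the same tumour alone. Hoxd1, Hoxd10 and Hoxd13 stayed below 1 RPM, and Hoxd11 and Hoxd12 had no read in any library. R222C tumour 2 carried 26.6% of all tumour Hox reads and the highest value of 12 of the 34 members with a read in a tumour.

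Over the 38 members, 18 were detected in at least 1 tumour and 20 in none, 4 of these without a read in any library. In the 25 tumours other than R222C tumour 2, wild-type EGFR tumour 1 and R108G tumour 1, 11 members were detected. Their sums over paralog groups 9 to 13 were 56.8, 48.0 and 16.6 RPM, against a median of 0.562 over all 28 tumours.

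Markers of other cell types that transcribe Hox genes were read in the same 3 tumours. Fibroblast and meningeal markers (7 genes) summed to 815, 543 and 617 RPM in R222C tumour 2, wild-type EGFR tumour 1 and R108G tumour 1, inside the 312 to 1592 of 23 other tumours (wild-type EGFR tumour 3 and mCherry tumour 1 not counted) and above the 159 and 210 of cortex. This list includes Pdgfra, which is also an oligodendrocyte precursor marker, so the sum does not measure fibroblasts alone. Over all tumours 1 of the 7, Pdgfra, rose and 2 fell, where 22.9% and 24.5% of all genes tested did. The median log2 difference of the 7 from cortex was -0.69. Endothelial markers (7 genes) summed to 140, 132 and 193 RPM, against 111 to 325 in the others and 142 and 186 in cortex. Blood progenitor markers (5 genes) summed to 162, 182 and 66.0 RPM, against 75.4 to 196 in the others and 218 and 225 in cortex. Of these, Kit, the stem cell factor receptor, measured 114, 133 and 27.9 RPM, the second being the highest of any tumour, against a median of 43.4 over all tumours and 55.6 and 61.7 in cortex. Kit is 1 of the 5, and the sum of all 5 lay below cortex in each of the 3 tumours. Over all tumours 1 of the 4 blood progenitor markers tested, Meis1, rose and 2 fell. Of 4 neutrophil markers, Elane had no read in any library, Mpo had none in 14 tumours and reached 3.24 RPM, and S100a8 and S100a9 had none in 5 and 3 tumours. Skeletal muscle markers summed to 1.51, 2.53 and 1.65 RPM (0.434 to 13.2 in the others) and skin markers to 11.1, 4.69 and 9.39 (2.61 to 12.1), both below cortex at 26.7 and 27 and at 14.3 and 15.6. The part of these cells in the Hox levels was not tested.

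By limma, R222C and R108K were the only groups with members called against cortex. All 8 group comparisons use the same 2 cortex libraries. R222C against cortex called 6 of 9 members, all higher, where 43.2% of all genes tested were called and 20.7% higher. Hoxa7 rose by 3.25 ± 0.93 (limma adjusted p = 0.00653), Hoxd8 by 2.20 ± 0.65 (0.00818) and Hoxa2 by 3.57 ± 1.14 (0.0137). Hoxa4 rose by 3.51 ± 1.24 (limma adjusted p = 0.0249), Hoxa10 by 2.24 ± 0.81 (0.0276) and Hoxa3 by 3.09 ± 1.23 (0.0450). Hoxa5 with a difference of 2.52 ± 1.08 (limma adjusted p = 0.0605), Hoxa9 with 1.87 ± 0.81 (0.0642) and Hoxa13 with 1.35 ± 0.87 (0.216) were not called. Hoxa9, Hoxa10 and Hoxd8 passed the filter only through R222C tumours, so their p-values here describe selected genes. The 6 called include Hoxa10 and Hoxd8. Of the 6, only Hoxa7 was called under all 42 alternatives, with adjusted p up to 0.0454. Without either cortex library the other 5 were lost. Without R222C tumour 2, Hoxa3 (limma adjusted p = 0.0998) and Hoxa10 (0.146) were lost, and the difference of Hoxd8 was 0.95 (0.0441). Without R222C tumour 3, Hoxa4 (limma adjusted p = 0.0590) and Hoxa3 (0.0904) were lost. The highest adjusted p over the alternatives was 0.161 for Hoxd8, 0.151 for Hoxa3, 0.146 for Hoxa10, 0.104 for Hoxa4 and 0.0722 for Hoxa2. Hoxd8 was also lost with only the groups compared (0.161) and within library numbers 20 to 37 (0.07). The call of Hoxa3 held under 28 of 42 alternatives and was also lost by edgeR, with no filter on low values, with a term for 3 library-number ranges and on leaving out R222C tumour 1, A289I tumour 2, A289V tumour 2 or any 1 R108G tumour. Without R222C tumour 2, wild-type EGFR tumour 1 and R108G tumour 1 together, Hoxa3, Hoxa4 and Hoxd8 were lost as well.

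R108K against cortex called 2 of 9 members, both higher, where 44.4% of all genes tested were called and 21.8% higher. Hoxa4 rose by 3.31 ± 1.18 (limma adjusted p = 0.0250) and Hoxa2 by 2.82 ± 1.08 (0.0367). Without R108K tumour 4, in which both were highest, neither was called, with differences of 2.78 (limma adjusted p = 0.0694) and 2.05 (0.12). Nor was either called without 1 of the cortex libraries or with a term for 3 library-number ranges, Hoxa2 was also lost with no filter on low values, and the highest adjusted p over the alternatives was 0.113 for Hoxa4 and 0.143 for Hoxa2. None of the other 6 groups had a member called against cortex by limma. There all genes tested were called at 41.1% for wild-type EGFR, 38.3% for mCherry, 40% for A289I, 15.2% for A289V, 37.1% for R108G and 41.6% for T263P. Over the 8 groups together 8 of 72 tests of members were called by limma and 12 had an unadjusted p under 0.05. By edgeR on the recovered reads 14 of 72 were called and 36 had an unadjusted p under 0.05, and by DESeq2 40 and 45. DESeq2 called members in all 8 groups, with 5 in mCherry and 6 in wild-type EGFR. edgeR called 3 in wild-type EGFR, 2 in T263P and 1 in A289I, and none in mCherry, R108G or A289V. The shares of all genes called by edgeR and DESeq2 in these group comparisons are not given here, so the counts are a description.

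**Figure D4:**
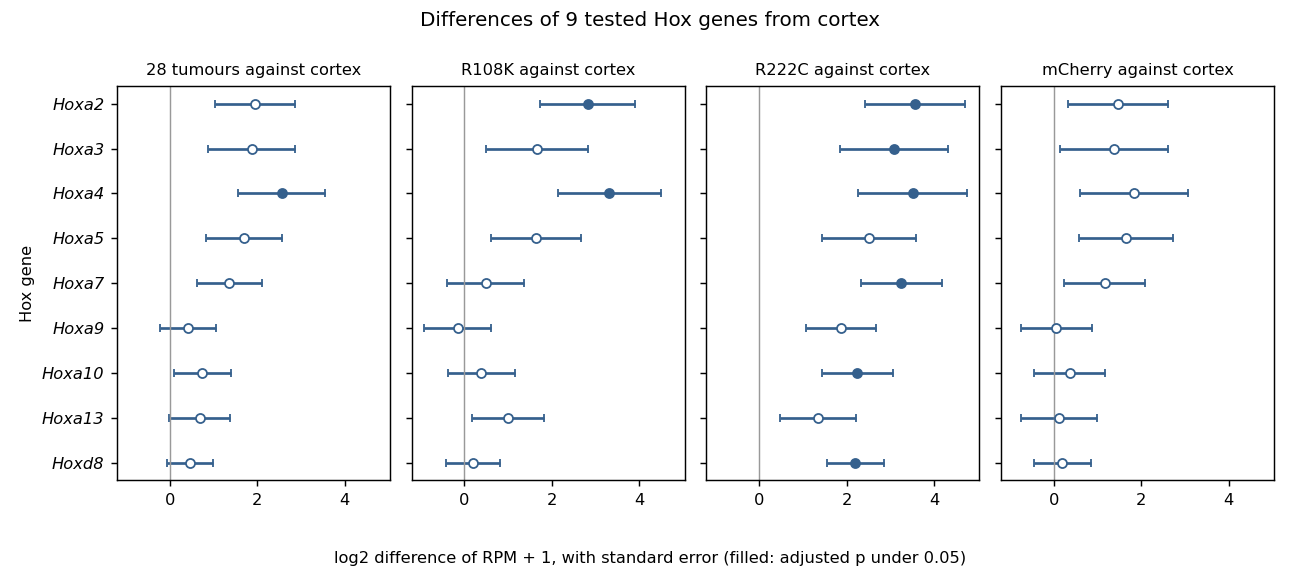
Log2 difference in log2(RPM + 1) from cortex, with its standard error, for 9 Hox genes tested, in the 28 tumours, R108K, R222C and mCherry. Filled points have a limma adjusted p under 0.05: Hoxa4 in all tumours, Hoxa2 and Hoxa4 in R108K, 6 genes in R222C and none in mCherry.

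Against mCherry tumours no member was called by limma in any receptor group. Of 63 tests none was called and 5 had an unadjusted p under 0.05, all 5 in R222C. By edgeR the counts were 0 and 7, and by DESeq2 0 and 6. All genes tested were called at 0.607% in A289I, 4.91% in A289V, 0.0379% in R108G, 0.0695% in R108K, 0.00632% in T263P and 0% in both R222C and wild-type EGFR. Hoxd8 in R222C had the lowest adjusted p of these tests, with a difference from mCherry of 2.0 ± 0.58 (limma adjusted p = 0.368). Hoxd8, like Hoxa9 and Hoxa10, passed the filter only through R222C tumours. In mCherry tumour 2, Hoxa2 measured 15.3 RPM and Hoxa5 12.2. In mCherry tumours 1 and 3, Hoxa2 measured 0.122 and 0.137 RPM and Hoxa5 0.365 and 0.687. The part of the receptor in the Hox levels was not tested.

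Against wild-type EGFR no member was called by limma in any of the 6 variants. Of 54 tests none was called and 9 had an unadjusted p under 0.05. By edgeR the counts were 2 and 12, and by DESeq2 5 and 12. All genes tested were called at 0.335% in A289I, 13.7% in A289V and 0% in each of R108G, R108K, R222C and T263P. For A289V the Hoxa9 difference was -1.61 ± 0.68 (limma adjusted p = 0.110) and the Hoxa10 difference -1.54 ± 0.68 (0.126). By edgeR both were called lower in A289V (adjusted p = 0.0230 and 0.0272), where 11.9% of all genes were called, and by DESeq2 too (0.0202 and 0.00384), where 18.3% were. DESeq2 also called Hoxa7 lower in A289V, and Hoxa7 and Hoxa10 lower in A289I, where 2.09% of all genes were called. Over 42 alternatives each was called in 4, and the adjusted p ranged from 0.00958 to 1 for Hoxa9 and from 0.00384 to 0.974 for Hoxa10. In the wild-type group, tumour 1 stood above the other 2 for both genes.

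Differences among the 8 tumour groups were tested with a moderated F-test, which called 10.3% of all genes tested and no member. Of the members, 4 had an unadjusted p under 0.05: Hoxa7 (limma adjusted p = 0.0588), Hoxd8 (adjusted p = 0.0968), Hoxa9 (0.133) and Hoxa10 (0.148). By edgeR 4 members were called, where 13.9% of all genes were, by DESeq2 4, where 24.5% were, and with limma library weights 4, where 37.1% were. Under each of these 3 settings the 4 were Hoxa7, Hoxa9, Hoxa10 and Hoxd8. Hoxa9, Hoxa10 and Hoxd8 passed the filter only through R222C tumours, which favours a difference among groups. Their p-values and calls here are therefore a description. The forward genes Hoxa2 to Hoxa5 had no call under any alternative, with a lowest adjusted p of 0.166 for Hoxa2.

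The 28-tumour comparison with cortex moved with the method. edgeR called 1 member, Hoxa4, where 47.3% of all genes were called, and DESeq2 called 5 (Hoxa2, Hoxa3, Hoxa4, Hoxa5 and Hoxa7), where 50.2% were. Library weights called 6, adding Hoxa10, where 76.5% were, and a pseudocount of 0.1 RPM called 5, where 48.3% were. The titles number the libraries, and neither what the number marks nor a preparation date is given in the sources used here. Tumours numbered below 20 (7), 20 to 37 (12) and above 37 (9) each had a median of 4 members detected, with median Hox sums of 28.3, 30.9 and 11 RPM. All A289I and R108G tumours lie above 37 and both cortex libraries within 20 to 37, so for these groups the number and the group cannot be told apart. Within 20 to 37, tumours against cortex called 1 member, Hoxa4, with a difference of 2.54 (limma adjusted p = 0.0270). The share of all genes called within this range is not given here. With a term for 2 or for 3 library-number ranges, Hoxa4 was not called.

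Transcripts made within the clusters were read beside the members. Hotairm1, an antisense transcript of the Hoxa cluster, had no read in cortex and 0.0780 to 21.4 RPM in the tumours (median 5.20), highest in A289I tumour 3. It rose by 2.49 ± 0.73 (limma adjusted p = 0.00669), 1 of the 2 tested among 14 such transcripts, where 22.9% of all genes tested rose. The other, Hoxaas2, reached 1.84 RPM in R222C tumour 2, and Hoxa11os reached 1.08 in wild-type EGFR tumour 1. Hottip, at the Hoxa13 end, reached 0.5 RPM and Hotair, in the Hoxc cluster, 0.110, while the Mir10a, Mir10b, Mir196 and Mir615 host entries had no read. Mature miRNAs are not captured in polyA libraries.

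Genes flanking the clusters were mixed: of 15 tested among 20, 3 rose and 3 fell in tumours. These counts are near the shares over all genes tested, 22.9% higher and 24.5% lower. Skap2, an adaptor protein gene beside the Hoxa cluster, measured 10.6 and 12.7 RPM in cortex and 11.3 to 351 in tumours (median 70.4), and rose by 2.46 ± 0.64 (limma adjusted p = 0.00276). Cbx1, beside the Hoxb cluster, rose by 0.98 ± 0.20 (limma adjusted p = 0.000276), Lnp, beside Hoxd, fell by 1.44 on that scale (0.000464), and Skap1, beside Hoxb, fell by 1.59 (0.00104). Evx1, the homeobox gene next to Hoxa13, reached 1.65 RPM and had no read in cortex.

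Regional identity genes outside the clusters also differed from cortex, in a comparison where 22.9% of all genes tested rose and 24.5% fell. Of 8 forebrain patterning genes 7 fell in tumours, among them Emx1 by 3.5 (limma adjusted p = 1.45e-05), Dlx1 by 2.65 (0.000323) while Lhx2 fell by 2.48 (0.000528). Of 5 tested among 7 hindbrain and spinal cord genes, 3 rose: En1 by 3.24 ± 0.62 (limma adjusted p = 0.000177), En2 by 2.8 ± 0.73 (0.00289) and Gbx2 by 1.65 ± 0.45 (0.00394). En1, a midbrain and hindbrain boundary gene, was 0 in cortex and above 0 in 27 of 28 tumours, with 0 in wild-type EGFR tumour 3. Of the other tumours with no member detected, mCherry tumour 1 had En1 at 14.6 RPM, A289V tumour 4 at 13.7, A289I tumour 1 at 3.27 and A289I tumour 4 at 2.76. Of 6 caudal and ParaHox genes, 2 were tested and Gsx1, a ventral forebrain progenitor gene, rose by 3.87 ± 0.89 (limma adjusted p = 0.000975), while Cdx1, Cdx2 and Cdx4, which switch on rear Hox genes in the embryo, reached at most 0.240 RPM.

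The cofactors and regulators of Hox genes were measured in all libraries. Between tumours and cortex, 22.9% of all genes tested rose and 24.5% fell. Of 8 TALE cofactors, 2 rose (Pknox1 and Meis1) and 3 fell, among them Pbx2 by 0.81 and Pknox2 by 1.01 on the log2 scale. Meis1, the partner of Hoxa9, rose by 1.31 ± 0.53 (limma adjusted p = 0.0426). Of 11 genes of Polycomb repressive complex 2, which silences the clusters, 5 rose and 2 fell. Ezh2, its methyltransferase in dividing cells, rose by 3.69 ± 0.40 (limma adjusted p = 1.42e-07), from 3.82 and 5.16 RPM in cortex to a tumour median of 69.8, and Ezh1 fell by 1.35. Of 13 complex 1 genes 3 rose, Cbx2 by 2.33 among them, and 4 fell, Cbx7 by 2.23 among them, near the shares over all genes. Of 16 genes of the opposing MLL, menin and DOT1L machinery 7 rose and none fell, with Kdm6b, which removes the Polycomb mark, higher by 1.84 ± 0.27 (limma adjusted p = 8.76e-06) and Dot1l by 1.52 ± 0.27 (7.50e-05). Of 15 tested among 17 retinoic acid pathway genes, whose signal activates forward Hox genes, Rxrg rose by 1.94 ± 0.65 (limma adjusted p = 0.0163) and 3 fell, among them the retinoic acid synthesis gene Aldh1a2 by 2.40 (0.000692) and Crabp2 by 1.99.

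The cell types of the tissue shifted in the same comparison, and their part in the Hox levels was not tested. The shares over all genes tested were 22.9% higher and 24.5% lower. All 6 neuron and all 5 oligodendrocyte markers fell in tumours and all 5 oligodendrocyte precursor markers rose, while 2 of 5 astrocyte markers fell. Of 8 microglia and macrophage markers 3 rose and 1 fell, of 6 T and NK cell markers 4 rose, of 5 B and plasma cell markers 1 rose, and of 2 neutrophil markers tested none was called. Of 4 blood progenitor markers tested 1 rose and 2 fell, of 7 endothelial markers 2 rose and 1 fell, and of 5 pericyte and smooth muscle markers 1 rose and 2 fell. Of 7 fibroblast and meningeal markers 1 rose and 2 fell, of 4 choroid plexus markers 1 rose, of 4 melanocyte markers tested 1 rose, and the 2 skeletal muscle and 2 skin markers tested fell. The blood progenitor marker that rose was Meis1, also counted with the TALE cofactors. The pericyte marker that rose was Cspg4 and the fibroblast marker Pdgfra, both also oligodendrocyte precursor markers. Neuron markers summed to 8080 and 8382 RPM in cortex, which has its defining markers.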

How the data were processed

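PolyA RNA of 28 tumours and 2 normal cortex samples was sequenced from TruSeq Stranded mRNA libraries, per the labels' protocols. FastQC, STAR 2.5.0a, DESeq2 1.20.0 and the mm10 build are named in the submitters' processing notes, without roles; the counting program and annotation are not given in the sources used here. The deposited values, named RPM per the file headers, are a signal the authors obtained by dividing gene reads by 1 size factor per library: every value was a whole number of reads within 0.05 read (100%), and column sums were 9.31 to 12.0 times what that name implies. Here they were divided by 10.2638 and called RPM, and gene reads (2784129 to 24475215 per library) were recovered from the steps. Of 24421 genes, 3274 had no read. Intervals are exact Poisson at 95%.

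Groups were compared with limma 3.58.1 (R 4.3.3) on log2(RPM + 1), fitting 9 group means over 30 libraries (21 residual degrees of freedom) with trend and robust moderation, two-sided, with Benjamini-Hochberg adjustment over 15824 genes at 1 RPM in 3 libraries. The fit was tested on simulated data. Alternatives were edgeR 4.0.16 and DESeq2 1.42.0 on recovered reads, library weights, 0.1 RPM as pseudocount, all genes kept or only those at 5 RPM, only the groups compared, terms for library-number ranges, comparisons within a range and leaving out each library. Tables were handled in Python 3.11.15 with pandas 2.3.3, numpy 2.4.6, scipy 1.17.1 and matplotlib 3.10.9. Gene positions are from GENCODE M21 and promoters from RefSeq (GRCm38.p6).

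A member was described singly if called in any comparison, at a mean of 1 RPM in a group, or at 5 RPM in 1 library (13 members); 25 are given by ranges. From each accompanying list up to 4 called genes of lowest adjusted p were eligible to be named; further names were added after their values were seen. Of the genes matched by the rule and the lists, 3 are not reported here. Members and lists were chosen with earlier results of these data known.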

Additional observations from a re-analysis of the deposited data

Results flagged for a closer look

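Within the A289I, A289V and R108K groups, the highest and lowest library was set against its nearest neighbour by Dixon's gap ratio (critical value 0.829 for 4 libraries and 0.71 for 5), for 36 pairs of a group and a gene or a number of genes detected. Chance alone flags some such pairs, and 9 of the 36 stood apart. The ratio is 1 whenever all the other libraries are tied, however small the gap. This held for every flagged pair but Hoxa13 in R108K tumour 4. The usual chance rate of about 1 in 20 does not apply to such ties, so the 9 cannot be read as an excess over chance. Hoxa13 in R108K tumour 4 measured 7.54 RPM, with the nearest library at 0.383 (gap ratio 0.908). Hoxd8 in A289V tumour 2 measured 1.38 RPM, with the other 3 at 0. In A289V tumour 4 the number of Hox genes detected was 0, with 4 in each of the other 3. The remaining 6 are values of 1 to 3 reads in groups otherwise at 0: Hoxa9 at 0.0536 RPM in A289I tumour 1, Hoxc4 at 0.116 and Hoxc9 at 0.0387 in A289I tumour 2, Hoxd9 at 0.0995 in A289I tumour 5, and Hoxa9 and Hoxc10, each at 0.0776, in R108K tumour 2.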

How the results depend on the processing

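None of the 9 called differences of single members changed sign under any setting. Some differences that were not called did: that of Hoxa2 between A289I and mCherry was 0.23 by limma and -1.01 by edgeR, and that of Hoxa4 between A289V and wild-type EGFR 0.10 and -0.28. For the 28 tumours against cortex, 1 member was called as reported, 5 by DESeq2, 6 with library weights, 5 with a pseudocount of 0.1 RPM, 0 without a filter, 1 with a filter at 5 RPM, 0 with terms for 2 or for 3 library-number ranges, 1 within numbers 20 to 37, and 0 without R222C tumour 2, wild-type EGFR tumour 1 and R108G tumour 1 (a setting chosen after seeing the data). Leaving out each library gave 0 to 1. Summed over the 8 groups against cortex, 8 calls became 40 by DESeq2, 14 by edgeR, 31 with library weights, 15 with only the groups compared, 18 with the smaller pseudocount and 5 with a term for 3 library-number ranges, and 1 to 15 when each library was left out (1 without either cortex library, 15 without wild-type EGFR tumour 3). Against mCherry, leaving out each library gave 0 every time. Against wild-type EGFR, 0 became 5 by DESeq2, 2 by edgeR, 5 with library weights, 1 without a filter, and 0 to 2 when each library was left out. For any difference among tumour groups, 0 became 4 by DESeq2, 4 by edgeR, 4 with library weights, 1 with the smaller pseudocount and 2 without the 3 tumours, and 0 to 2 when each library was left out. Most of the counts in this paragraph have no share over all genes beside them, and that share moves with the setting too. For the 28 tumours against cortex it was 47.4% as reported and 76.5% with library weights. The counts are therefore a description and not a result about the members. At a detection level of 0.5 RPM, 2 tumours in place of 5 had no member detected. The causes of these differences were not tested. No paired analysis was possible because the labels give no replicate numbers and the ones used here follow accession order. Depth limits what can be said of a 0: 3 reads were worth up to 1.15 RPM in the shallowest library, above the detection level.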
